A study of Mus musculus with 6 samples.

Results

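The genes of the RNA polymerases and general transcription factors were examined in the oocyte transcriptome of Lsm14b-KO mice. They were all rows of the deposited expression table whose symbol begins with Polr1 to Polr3, with Gtf2a to Gtf2h, with Gtf3, or with Taf and a number, leaving out Taf4b. This rule gave 70 of the 24255 genes in the table, and the rule used no measured value. RNA-Seq had been done on fully-grown oocytes (FGOs) that still held their germinal vesicle (GV), the nucleus of the immature oocyte, with 3 libraries from wild type (WT) and 3 from Lsm14b-KO mice, and 20 oocytes in each library. Both groups were C57BL/6J females primed with 5 IU of PMSG, a gonadotropin, with oocytes taken 46 h later. The mutant mice were homozygous for Lsm14b tm1a(KOMP)Mbp, a reporter-tagged insertion that is carried in the whole body and not in oocytes alone, and the age of the mice is not given in the sources used here. Values are FPKM, a measure that divides fragments by the length of the transcript and by sequencing depth, so levels of different genes are compared per length.

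RNA polymerase I (Pol I) makes the large ribosomal RNAs, Pol II makes mRNAs, and Pol III makes tRNAs and 5S ribosomal RNA. The enzymes share a set of small subunits and each needs general factors to find a promoter. TFIIA, TFIIB, TFIID, TFIIE, TFIIF and TFIIH act with Pol II, SL1 acts with Pol I, and TFIIIA and TFIIIC act with Pol III. Growing oocytes transcribe and store mRNAs, and the fully-grown oocyte is largely silent in transcription until after fertilization. In growing oocytes the TBP relative TBPL2 and TFIIA are known to take the place that TBP and TFIID hold in somatic cells. The mRNAs described here are therefore mostly stored ones, and a level does not tell whether the protein is made.

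Lsm14b, the targeted gene, had levels of 2.77, 3.98 and 1.72 FPKM in the 3 WT libraries. In the 3 Lsm14b-KO libraries it stood at 0, 0 and 0.102 FPKM. The groups did not overlap, and the difference on the log2(FPKM + 1) scale was −1.85 ± 0.25 (SE, n = 3 per group, limma adjusted p = 0.0038, exact permutation p = 0.10, the smallest this design can give). All 10 oocyte markers examined reached 1 FPKM, with sums of 13814 to 14903 in WT and 12537 to 16039 in Lsm14b-KO libraries. Of 10 cumulus and granulosa cell markers 3 reached 1 FPKM, and Cyp19a1 was the highest, at up to 11.5 FPKM. The sums over the 10 were 9.68 to 13.5 in WT and 6.13 to 9.96 FPKM in Lsm14b-KO libraries. Amh, Foxl2, Cyp11a1, Inhba and Ptx3 were at 0 throughout. All 6 red blood cell markers found were at 0, and of 3 immune cell markers only Cd68 was above 0, at no more than 0.728 FPKM. Relative depth, read from the steps between the lowest values and set to 1 in WT replicate 1, was at most 1.14 in WT and 1.33, 1.96 and 2.19 in the mutant libraries. Summed FPKM lay at 1141324 to 1244182 for WT and at 1029728, 564671 and 676656 for Lsm14b-KO, replicate 1 first. Nothing in the labels says that the libraries of a group came from separate mice, so p-values measure the spread between these libraries. In such bulk libraries a lower level per oocyte and fewer oocytes with the transcript cannot be told apart.

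Transcripts of this machinery differed in level by several orders of magnitude within WT oocytes. Of the 70 genes, 13 had a WT mean of 100 FPKM or more, 11 had 10 to 100, 14 had 1 to 10, and 32 had less than 1 FPKM. The highest was Polr2d, which encodes the RPB4 stalk subunit of Pol II, with 5468, 5149 and 4406 FPKM in the WT libraries. Taf9, a histone-fold subunit of TFIID, followed with 5099, 4668 and 3922 FPKM. Polr2d and Taf9 were the only members among the 100 genes of highest mean FPKM, and 12 members were among the highest 500. All 13 members above 100 FPKM encode small proteins, with a coding length under 1000 bases, and 8 of them have a coding length under 500 bases.

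The large catalytic subunits stood at the other end of the range. Polr2a, the largest subunit of Pol II, had 0.0775, 0.102 and 0.0754 FPKM in WT and 0.438, 0.0995 and 0.0358 FPKM in Lsm14b-KO libraries. The groups overlapped, with Lsm14b-KO replicate 1 the highest of the 6 libraries, and the exact permutation test gave p = 0.80. Polr1a, the largest subunit of Pol I, was listed at 0.214, 0 and 0.0417 FPKM in WT and at 0.0323, 0.242 and 0.0396 FPKM in Lsm14b-KO libraries. Taf1, the largest TFIID subunit, ranged from 0.0628 to 0.282 FPKM over the 6 libraries. Polr3a, the largest subunit of Pol III, was the only one of the 3 largest polymerase subunits that reached 1 FPKM, with 1.87, 1.39 and 1.49 in WT and 1.11, 1.16 and 1.41 in Lsm14b-KO libraries. Its groups overlapped by 1 pair of libraries and its difference of −0.21 ± 0.19 did not pass the test (adjusted p = 0.407). Of the 32 members under 1 FPKM in WT, 27 have a coding length of 1000 bases or more. Across all 70 members the rank correlation of WT level with coding length was −0.66 (Spearman), and across 13208 protein-coding genes above 0 in any library it was −0.32. This is a description across genes, which share libraries and are not replicates.

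**Figure D1:**
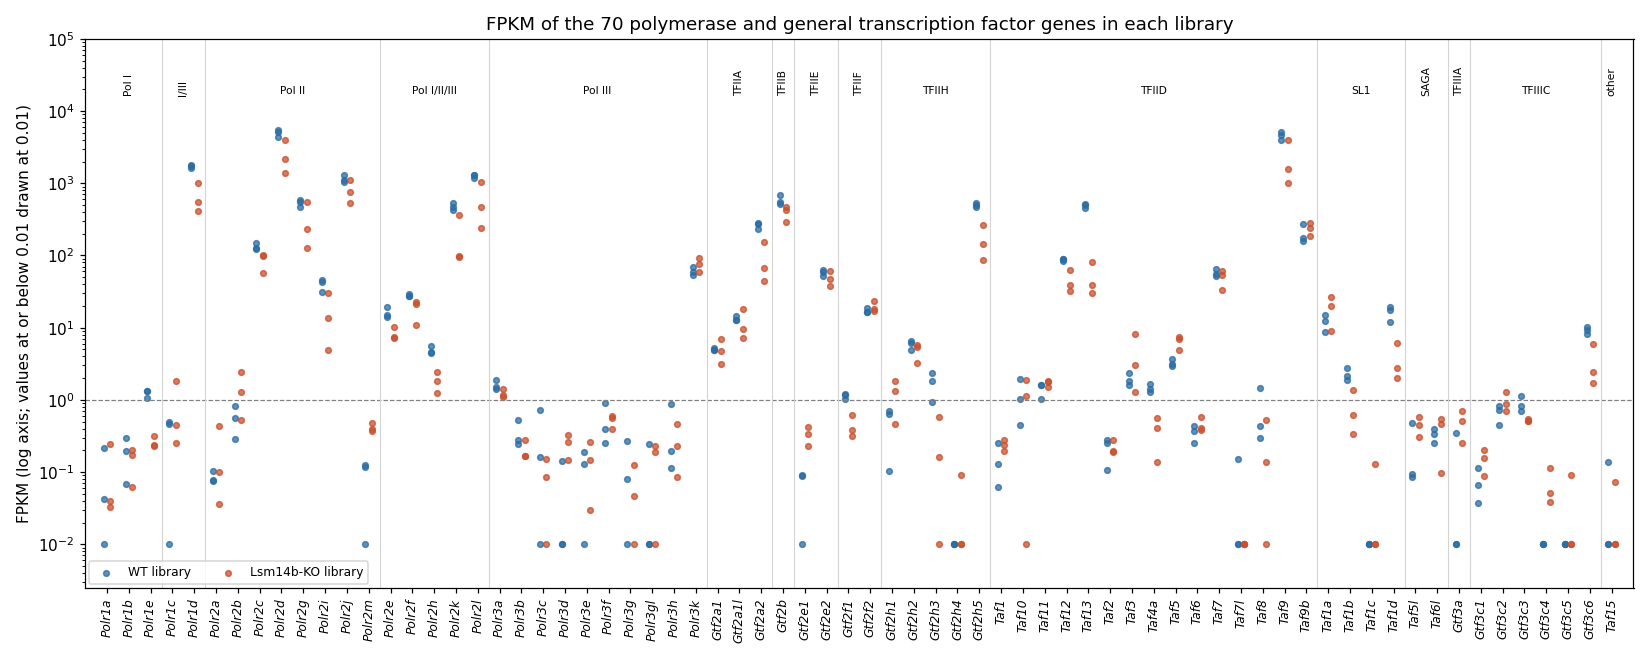
FPKM (log axis) of the 70 genes in each of the 3 WT (blue) and 3 Lsm14b-KO (red) libraries, grouped by role, with values at or below 0.01 drawn at 0.01 and a dashed line at 1 FPKM. The small subunits such as Polr2d, Polr1d, Polr2l and Taf9 lie above 1000 FPKM in WT, and 32 genes have a WT mean under 1 FPKM.

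The question of the comparison was how loss of LSM14B, an RNA-binding protein, changes the mRNAs stored in FGOs. Of the 70 members, 44 reached 1 FPKM in at least 1 library and were tested, and the other 26 never exceeded 0.904 FPKM. Of the 44, 12 were lower and 1 was higher in Lsm14b-KO oocytes at an adjusted p under 0.05, and 31 did not pass. The 13 called are 29.5% of the tested members, and 21.6% of all 6398 tested genes were called. By direction, 27.3% of the tested members were lower against 15.2% of all tested genes, and 2.27% were higher against 6.38%. The groups did not overlap for 23 members that were lower in every Lsm14b-KO library, 52.3% of those tested, against 26.0% of all tested genes. They did not overlap upward for 1 member, 2.27%, against 19.1% of all tested genes. The median difference of the tested members was −0.58 on the log2(FPKM + 1) scale, and that of all tested genes was −0.08. A member that reached 1 FPKM in 1 group alone entered the test through that group, which holds for 6 members through WT, among them Gtf2h3, Polr1e and Taf4a of the 13 called, and for 4 through Lsm14b-KO.

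Scaling moved the direction of the group as a whole. With each library scaled to the same FPKM sum (TPM), the median of all tested genes moved by 0.48 to 0.40 and that of the members became −0.0067, so that the members' median minus that of all genes was −0.41 in place of −0.51. As reported, 33 of the 44 tested members had a lower and 11 a higher estimate, and with TPM 22 were lower and 22 higher. Under TPM 5 members were lower and 1 higher past the threshold, while all tested genes had 486 lower and 833 higher calls in place of 975 lower and 408 higher. The members that passed were Taf13, Taf1d, Gtf2h5, Gtf2a2, Polr1d and Taf5. Polr2h, Polr2e, Gtf3c6, Gtf2h3, Taf1b, Taf4a and Polr1e, also among the 13 called, did not pass with TPM. A correction for transcript length left 10 members lower and 0 higher, with 783 genes lower and 595 higher in all. Quantile normalization gave 9 lower and 1 higher member, with 735 genes lower and 540 higher. The groups of the 13 called members do not overlap. Of the 15 alternatives, only TPM scaling, quantile normalization and the length correction could therefore have changed a sign. None of the 13 changed sign in these fits.

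**Figure D2:**
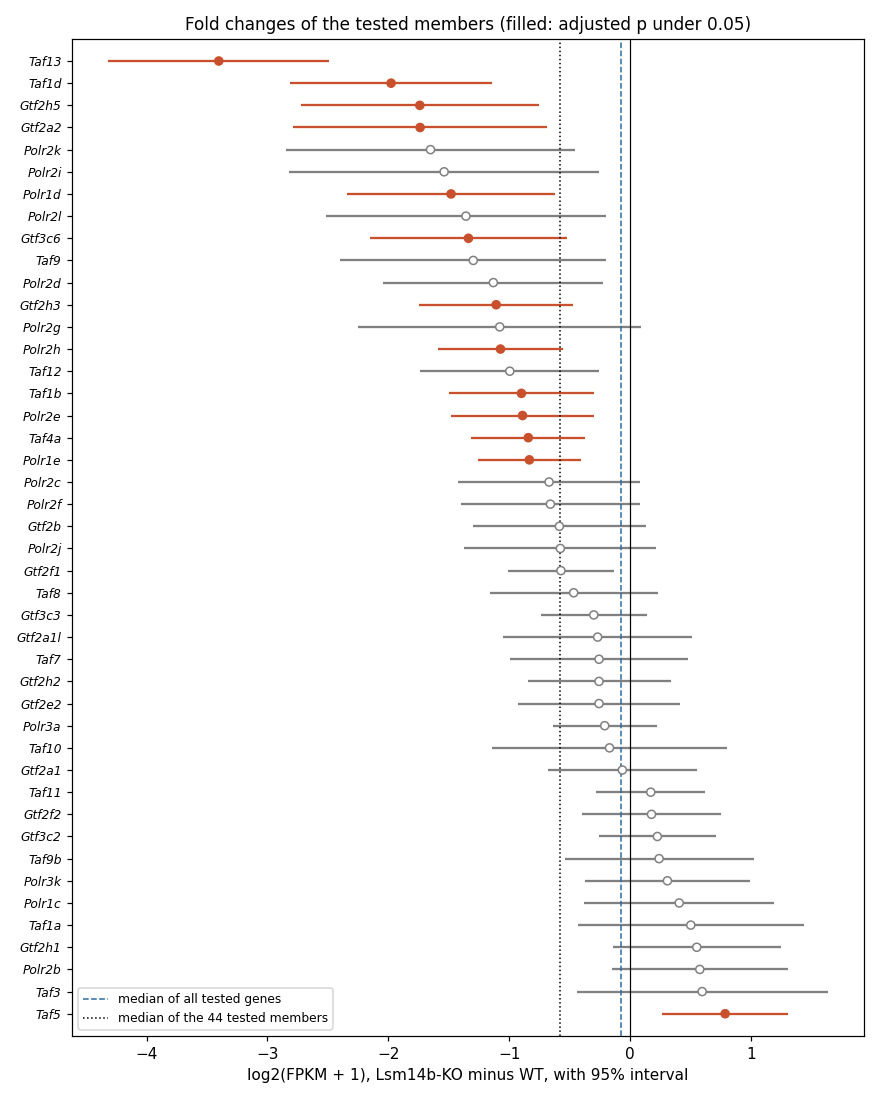
Difference in log2(FPKM + 1), Lsm14b-KO minus WT, with 95% intervals, for the 44 tested members in order of size, filled red where the adjusted p was under 0.05. The dotted line is the members' median of −0.58 and the dashed line that of all tested genes, −0.08, and Taf13 lies furthest from both.

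Taf13 had the largest difference of all members. It encodes a small histone-fold subunit of TFIID that pairs with TAF11, and lies on chromosome 3 at 108571698 to 108583222 (plus strand, GRCm38/mm10). It had 514, 499 and 456 FPKM in WT and 80.1, 29.9 and 38.7 FPKM in Lsm14b-KO libraries. Every Lsm14b-KO library was far below every WT library, and the WT mean was 9.88 times the Lsm14b-KO mean. The difference was −3.40 ± 0.40 (SE, adjusted p = 0.00219), and Taf13 was the only one of the 13 called members that stayed past the threshold when each of the 6 libraries was left out in turn. Its partner Taf11 did not pass (adjusted p = 0.528), with 1.59, 1.62 and 1.02 FPKM in WT and 1.78, 1.5 and 1.81 FPKM in Lsm14b-KO libraries, which overlap. The ratio of Taf13 to Taf11 was 309 to 447 in WT and 19.9 to 45 in Lsm14b-KO libraries.

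The proximal promoters of 3 members are printed here, Taf13 as the largest fall, Taf5 as the only rise, and Polr2a as the catalytic subunit of Pol II near 0 FPKM. They run from 250 bases before to 50 bases after the annotated start, 5′ to 3′ on the gene's strand, from RefSeq (GRCm38.p6), and lie at chr3:108571449-108571748 (plus), chr19:47067498-47067797 (plus) and chr11:69758584-69758883 (minus). Capitals mark the letters TATAAA of a core promoter element that TBP binds, GGGCGG of the GC box, and CCGGAAG of an ETS-type site, each searched on both strands.
Taf13: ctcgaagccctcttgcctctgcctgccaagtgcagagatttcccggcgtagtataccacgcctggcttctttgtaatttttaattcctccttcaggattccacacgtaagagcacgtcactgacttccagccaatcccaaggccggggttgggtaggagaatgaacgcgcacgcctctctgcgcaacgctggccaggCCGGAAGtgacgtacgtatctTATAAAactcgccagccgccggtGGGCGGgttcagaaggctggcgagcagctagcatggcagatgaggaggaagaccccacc
Taf5: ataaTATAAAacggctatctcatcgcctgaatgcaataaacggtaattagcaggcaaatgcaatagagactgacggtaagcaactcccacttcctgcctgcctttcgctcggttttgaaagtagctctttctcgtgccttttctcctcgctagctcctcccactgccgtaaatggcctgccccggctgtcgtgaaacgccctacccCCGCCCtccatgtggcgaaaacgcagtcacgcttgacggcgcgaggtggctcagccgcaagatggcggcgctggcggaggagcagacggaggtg
Polr2a: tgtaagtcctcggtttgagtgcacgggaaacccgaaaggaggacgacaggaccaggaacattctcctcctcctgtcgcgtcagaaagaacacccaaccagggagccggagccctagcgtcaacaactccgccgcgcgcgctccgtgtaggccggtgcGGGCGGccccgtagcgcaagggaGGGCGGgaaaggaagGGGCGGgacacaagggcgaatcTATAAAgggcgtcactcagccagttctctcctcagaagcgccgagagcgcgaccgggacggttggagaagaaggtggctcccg
The TATAAA match began 32 bases before the start in Taf13 and 33 bases before it in Polr2a, but 246 bases before it in Taf5. Taf13 also held CCGGAAG 53 bases and GGGCGG 9 bases before the start, and Polr2a held 3 GGGCGG matches. Promoters were found for 60 of the 70 members by symbol. CCGGAAG was in 38.3% of these and in 9.12% of all 27025 promoters of this length, GGGCGG in 63.3% and 35.9%, and TATAAA in 16.7% and 14.2%. Among the 11 promoters found for the 12 members that fell, CCGGAAG was in 45.5%, GGGCGG in 63.6% and TATAAA in 27.3%. A match describes the letters in this window and was not tested for use in oocytes.

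Among the subunits common to all 3 polymerases, each of the 5 genes was lower in every Lsm14b-KO library than in any WT library, and 2 passed the test. Among all tested genes 26.0% were lower without overlap and 15.2% fell. Polr2h, which encodes RPB8 (chromosome 16, 20717665 to 20722267, plus strand), had 4.41, 4.63 and 5.58 FPKM in WT and 1.80, 1.25 and 2.41 FPKM in Lsm14b-KO libraries. It fell by 1.07 ± 0.22 (SE) on the log2(FPKM + 1) scale (adjusted p = 0.0162). Polr2e, which encodes RPB5 (chromosome 10, 80035949 to 80039795, minus strand), had 19.5, 14.2 and 15 FPKM in WT and 7.09, 7.52 and 10.3 FPKM in Lsm14b-KO libraries, a fall of 0.89 ± 0.26 (adjusted p = 0.0443). Neither passed with TPM scaling, where Polr2h was at −0.57 (adjusted p = 0.155) and Polr2e at −0.25 (adjusted p = 0.570). In neither gene was Lsm14b-KO replicate 1 the highest mutant library. Polr2e shares its deposited locus with 48 other table rows, and its reads may not have been kept apart from theirs.

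Of the other 3 common subunits, Polr2k and Polr2l showed another pattern among the mutant libraries. Polr2k, which encodes RPB12, had 537, 473 and 429 FPKM in WT and 360, 96.7 and 99.2 FPKM in Lsm14b-KO libraries, a difference of −1.65 that did not pass (adjusted p = 0.0548). Polr2l, which encodes RPB10, had 1308, 1313 and 1178 FPKM in WT and 1036, 242 and 476 FPKM in Lsm14b-KO libraries. In both, Lsm14b-KO replicate 1 lay between WT and the other 2 mutant libraries. Polr2f, which encodes RPB6, ranged from 27.2 to 29.6 FPKM in WT and had 22.5, 10.9 and 21.2 FPKM in Lsm14b-KO libraries. Its replicates 1 and 3 lay close together with replicate 2 below them, and it did not pass (adjusted p = 0.162).

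None of the 6 tested subunits particular to Pol II passed the test in limma, against 21.6% of all tested genes called. An unadjusted p under 0.05 was found for 2 of them, and for 2518 of all 6398 tested genes. Polr2d had 3925, 1385 and 2167 FPKM in Lsm14b-KO libraries, all below the lowest WT library, and a difference of −1.13 (95% interval −2.04 to −0.22, adjusted p = 0.0741). Polr2g encodes RPB7, which joins RPB4 in the stalk of Pol II, and had 580, 556 and 473 FPKM in WT and 545, 127 and 232 FPKM in Lsm14b-KO libraries. The ratio of the 2 stalk transcripts overlapped between groups, with Polr2d at 9.26 to 9.43 times Polr2g in WT and 7.21 to 10.9 times in Lsm14b-KO libraries. Polr2i, which encodes RPB9, had 43.5, 46.3 and 31.0 FPKM in WT and 30.3, 4.93 and 13.8 FPKM in Lsm14b-KO libraries. Polr2c and Polr2j, whose products RPB3 and RPB11 pair at the base of the enzyme, had WT means of 134 ± 14.4 and 1154 ± 137 and Lsm14b-KO means of 86.1 ± 25 and 805 ± 297 FPKM (SD, n = 3), and neither passed. Polr2b, the second largest subunit, was low in both groups, at 0.282 to 0.823 FPKM in WT and 0.532 to 2.47 FPKM in Lsm14b-KO libraries (adjusted p = 0.204). Polr2m, an associated protein, was not tested, at 0 to 0.123 FPKM in WT and 0.365 to 0.476 FPKM in Lsm14b-KO libraries.

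Leaving out the subunits common to all 3 polymerases, only Polr1d and Polr3k among the Pol I and Pol III members had a WT mean above 10 FPKM. Subunits under other symbols fall outside the rule and are not counted here. Polr1d, which encodes the AC19 subunit of both enzymes (chromosome 5, 147077050 to 147111597, plus strand), had 1792, 1708 and 1641 FPKM in WT and 1016, 411 and 550 FPKM in Lsm14b-KO libraries. The groups were well apart and Polr1d fell by 1.48 ± 0.37 (SE, adjusted p = 0.0295). Its partner Polr1c, which encodes AC40, was listed at 0.486, 0 and 0.467 FPKM in WT and at 1.81, 0.249 and 0.442 FPKM in Lsm14b-KO libraries. Polr1e, a Pol I subunit that acts in initiation (chromosome 4, 45018583 to 45036565, plus strand), had 1.07, 1.34 and 1.34 FPKM in WT and 0.231, 0.236 and 0.317 FPKM in Lsm14b-KO libraries. All 3 mutant libraries were close to each other and below WT, and Polr1e fell by 0.83 ± 0.18 (adjusted p = 0.0199). Polr1e reached 1 FPKM in WT libraries alone and so entered the test through the group where it is high. Polr1b, the second largest subunit of Pol I, was not tested, at no more than 0.295 FPKM.

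Of the 10 members particular to Pol III, 8 were not tested, at no more than 0.904 FPKM in any library. Polr3k, a small subunit that acts in RNA cleavage and termination, was the exception in level, with 53.6, 68.5 and 59.3 FPKM in WT and 58.7, 76.5 and 92.7 FPKM in Lsm14b-KO libraries. The groups overlapped and the difference was 0.31, with a 95% interval of −0.37 to 0.99 (adjusted p = 0.447). Polr3k is one of the 13 tested members with a coding length under 500 bases, and the only one of them with a higher estimate. The paralogs Polr3g and Polr3gl, which take alternative places in Pol III, were both near 0, at 0 to 0.270 and 0 to 0.245 FPKM over the 6 libraries.

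In TFIIA, which binds TBP or TBPL2 at the promoter, the small subunit fell and neither form of the large subunit passed, and the difference between the subunits was not tested. Gtf2a2 encodes the small gamma subunit (chromosome 9, 70012550 to 70022866, plus strand) and had 281, 271 and 231 FPKM in WT and 153, 44.1 and 68.0 FPKM in Lsm14b-KO libraries. It fell by 1.74 ± 0.46 (SE, adjusted p = 0.0333), and the groups did not overlap. Gtf2a1, the large subunit of somatic cells, had 4.91, 4.88 and 5.18 FPKM in WT and 3.14, 6.85 and 4.77 FPKM in Lsm14b-KO libraries (difference −0.07 ± 0.27, adjusted p = 0.865). Gtf2a1l, its germ cell paralog, had 12.9, 14.5 and 12.8 FPKM in WT and 18.2, 7.17 and 9.70 FPKM in Lsm14b-KO libraries (difference −0.27 ± 0.34, adjusted p = 0.562). Both overlapped between groups, and both changed sign under TPM scaling and quantile normalization. Without Lsm14b-KO replicate 1, Gtf2a1l was lower past the threshold (−0.62, adjusted p = 0.0465). The germ cell form was 2.46 to 2.96 times the somatic form in WT and 1.05 to 5.80 times in Lsm14b-KO libraries.

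In TFIIB, TFIIE and TFIIF none of the 4 tested members passed in limma, against 21.6% of all tested genes called. Gtf2f1 alone had an unadjusted p under 0.05, as had 2518 of all 6398 tested genes. Gtf2b, which encodes TFIIB, had 521, 551 and 686 FPKM in WT and 293, 428 and 463 FPKM in Lsm14b-KO libraries, which did not overlap. Its difference of −0.59 ± 0.31 did not pass (adjusted p = 0.191) and changed sign under TPM scaling and quantile normalization. In TFIIF, which escorts Pol II to the promoter, the small subunit Gtf2f2 had 16.3 to 18.6 FPKM in WT and 17.2 to 23.6 FPKM in Lsm14b-KO libraries. The large subunit Gtf2f1 had 1.04 to 1.21 FPKM in WT and 0.316 to 0.621 FPKM in Lsm14b-KO libraries, without overlap, and did not pass (adjusted p = 0.0639). In TFIIE, which recruits TFIIH, Gtf2e2 had 51.5 to 62.0 FPKM in WT and 37.8 to 60.8 FPKM in Lsm14b-KO libraries, while Gtf2e1 was listed at 0.415 FPKM or less.

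In TFIIH, the factor that opens DNA and takes part in DNA repair, 2 of 4 tested members fell (50%, against 15.2% of all tested genes). Gtf2h5, its smallest subunit (chromosome 17, 6079786 to 6086517, plus strand), had 532, 505 and 465 FPKM in WT and 266, 85.2 and 145 FPKM in Lsm14b-KO libraries. It fell by 1.74 ± 0.43 (SE, adjusted p = 0.0271). Gtf2h3, a core subunit (chromosome 5, 124579140 to 124597680, plus strand), had 0.943, 1.83 and 2.34 FPKM in WT and 0, 0.161 and 0.578 FPKM in the mutant libraries. The groups did not overlap, and Gtf2h3 fell by 1.11 ± 0.28 (adjusted p = 0.0284). Gtf2h3 reached 1 FPKM in WT libraries alone, so its place in the share of 50% rests on the group where it is high. The core subunits Gtf2h1, at 0.103 to 0.696 FPKM in WT and 0.463 to 1.82 in Lsm14b-KO libraries, and Gtf2h2, at 4.86 to 6.55 and 3.21 to 5.73, did not pass. Gtf2h4 was listed at 0 in 5 of the 6 libraries. Outside the symbol rule 4 further TFIIH genes were tested, and 1 of them, Ercc3, fell, so the share of 50% does not describe the whole of TFIIH.

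TFIID had 11 tested members of 15, of which 2 fell (18.2%, against 15.2% of all tested genes) and 1 rose (9.09%, against 6.38%). Besides Taf13, Taf4a, a scaffold subunit with a histone fold (chromosome 2, 179912152 to 179976646, minus strand), had 1.27, 1.64 and 1.41 FPKM in WT and 0.410, 0.558 and 0.139 FPKM in Lsm14b-KO libraries. Taf4a fell by 0.84 ± 0.20 (SE, adjusted p = 0.0264), and entered the test through WT, since it reached 1 FPKM in WT libraries alone. Its histone-fold partner Taf12 had 82.8, 88.2 and 90.6 FPKM in WT and 62.9, 32.5 and 39.3 FPKM in Lsm14b-KO libraries, without overlap, and did not pass (adjusted p = 0.0592). Taf5, a scaffold subunit with WD repeats (chromosome 19, 47067746 to 47083479, plus strand), was the only member that rose. It had 2.94, 3.68 and 3.18 FPKM in WT and 7.46, 4.83 and 7.0 FPKM in Lsm14b-KO libraries, a difference of 0.79 ± 0.23 (adjusted p = 0.0445). Every mutant library was above every WT library, and the Lsm14b-KO mean was 1.97 times the WT mean.

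The paralogs Taf9 and Taf9b, which take the same place beside TAF6, were both abundant. Taf9 had 3920, 1024 and 1563 FPKM in Lsm14b-KO libraries, the first of them just under the lowest WT library, and did not pass (difference −1.30, 95% interval −2.40 to −0.20, adjusted p = 0.0849). Taf9b had 173, 160 and 275 FPKM in WT and 184, 240 and 282 FPKM in Lsm14b-KO libraries (difference 0.24, 95% interval −0.54 to 1.02, adjusted p = 0.609). The ratio of Taf9 to Taf9b was 14.3 to 29.5 in WT and 21.3, 4.26 and 5.54 in Lsm14b-KO replicates 1, 2 and 3, and the difference between the paralogs was not tested. Taf7, an intronless TFIID gene, had 52.2, 55.8 and 65.1 FPKM in WT and 33.1, 54.1 and 61.2 FPKM in Lsm14b-KO libraries (difference −0.26 ± 0.32, adjusted p = 0.557), and shares its deposited locus with 62 other table rows. Its germ cell paralog Taf7l was listed at 0.151 FPKM in WT replicate 1 and at 0 in the other 5 libraries. Taf3, which binds methylated histone H3, had 1.83, 2.33 and 1.62 FPKM in WT and 1.29, 8.11 and 3.07 FPKM in Lsm14b-KO libraries, which overlap. Taf8 and Taf10 were below 2 FPKM and were listed at 0 in 1 mutant library each, and neither passed. Taf2 and Taf6 were not tested, at no more than 0.277 and 0.580 FPKM.

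SL1, the TBP complex of Pol I, had 2 falls among 3 tested members (66.7%, against 15.2% of all tested genes). Taf1d (chromosome 9, 15306214 to 15316991, plus strand) had 17.7, 19.2 and 12.1 FPKM in WT and 6.19, 2.01 and 2.73 FPKM in Lsm14b-KO libraries, a fall of 1.98 ± 0.36 (SE, adjusted p = 0.0104). Its gene body holds 10 other annotated genes on the same strand, whose reads may be counted with it. Taf1b (chromosome 12, 24498359 to 24558539, plus strand) had 2.12, 1.86 and 2.79 FPKM in WT and 0.341, 0.623 and 1.39 FPKM in Lsm14b-KO libraries, a fall of 0.90 ± 0.26 (adjusted p = 0.0437). Both were lower in every mutant library, while Taf1a, with 8.76 to 14.9 FPKM in WT and 9.04 to 26.3 FPKM in Lsm14b-KO libraries, overlapped. Taf1c was listed at 0 in all WT libraries.

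In TFIIIC, which binds tRNA gene promoters, the smallest subunit was the most abundant. Gtf3c6 (chromosome 10, 40247703 to 40258108, minus strand) had 9.43, 10.2 and 8.05 FPKM in WT and 5.99, 1.72 and 2.43 FPKM in Lsm14b-KO libraries, and fell by 1.34 ± 0.35 (SE, adjusted p = 0.0336). Gtf3c2 and Gtf3c3 did not exceed 1.28 FPKM and did not pass, and Gtf3c1, Gtf3c4 and Gtf3c5 never exceeded 0.200 FPKM. TFIIIA, the 5S gene factor encoded by Gtf3a, was listed at 0, 0 and 0.348 FPKM in WT and at 0.249, 0.693 and 0.505 FPKM in Lsm14b-KO libraries and was not tested. Taf5l and Taf6l, which belong to SAGA-type complexes, and Taf15, an RNA-binding protein, were not tested, at no more than 0.578 and 0.136 FPKM.

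**Figure D3:**
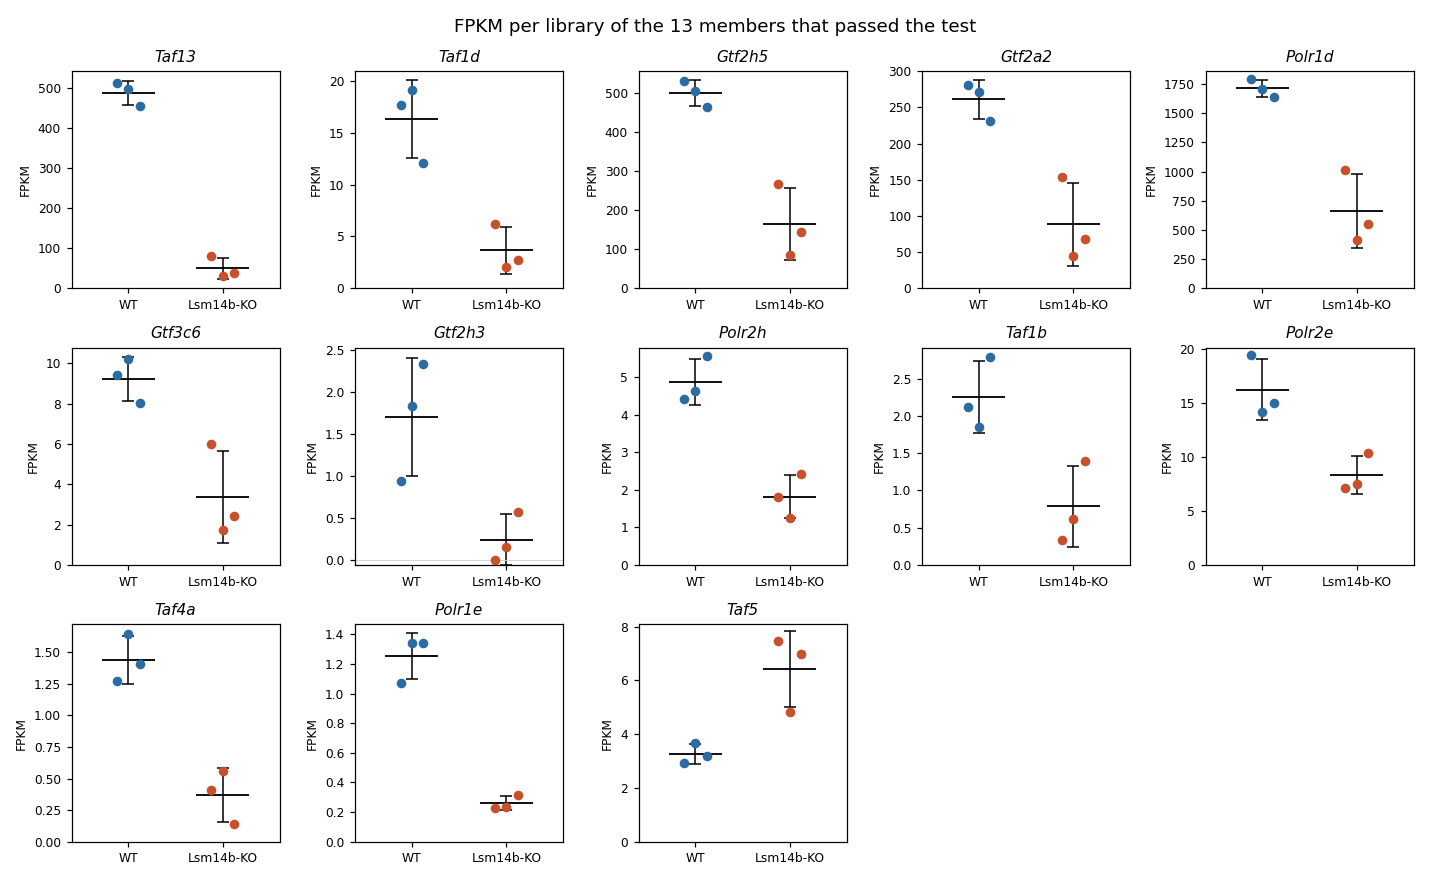
FPKM in each library for the 13 members with an adjusted p under 0.05, with points for the libraries, a line for the group mean and bars of 1 SD (n = 3). The WT (blue) and Lsm14b-KO (red) points do not overlap in any panel, 12 genes are lower in Lsm14b-KO and Taf5 is higher.

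The members that fell and those that did not were spread unevenly over coding length. In the 13 tested members with a coding length under 500 bases the median difference was −1.36, and 5 of them (38.5%) fell, beside a median of −0.66 and 26.4% in the 968 tested protein-coding genes of that length. From 500 to 1000 bases the median was −0.63 in 14 members and −0.25 in 1842 genes. From 1000 to 2000 bases it was −0.26 in 10 members and 0.12 in 2015 genes, and from 2000 bases up it was 0.22 in 7 members and 0.33 in 1098 genes. Taf5 and Taf4a belong to this longest class, in which 1 member rose and 1 fell. Across genes, the rank correlation of the difference with coding length was 0.59 (Spearman) over the 44 tested members and 0.36 over 5923 tested protein-coding genes. Length moved with the difference in the members and in all genes, and its part in the members' differences was not tested. Level was not matched in these classes. The median WT mean was 480 FPKM in the tested members under 500 bases and 19.4 FPKM in the tested genes of that length. In the longer classes, in order, it was 16.7 against 3.99, 3.62 against 2.17 and 1.44 against 1.36 FPKM. The part of level was not tested either. The length correction used annotated transcript length, and no fit corrected for coding length. The 2 can differ, as in Taf13, with a coding length of 372 and a transcript length of 2443 bases. With the correction for transcript length 9 of the 13 calls remained. Polr2h (−0.47, adjusted p = 0.187), Polr2e (−0.37, adjusted p = 0.359), Taf1b (−0.79, adjusted p = 0.0625) and Taf5 (0.74, adjusted p = 0.0582) did not pass.

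**Figure D4:**
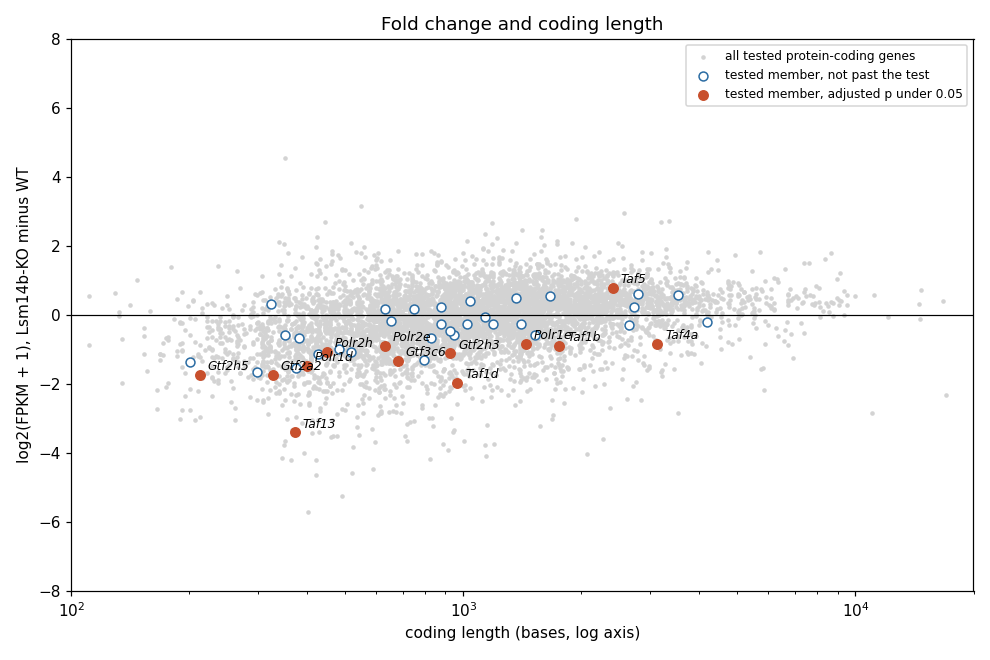
Difference in log2(FPKM + 1), Lsm14b-KO minus WT, against coding length (bases, log axis) for all tested protein-coding genes (grey), tested members past the threshold (red, named) and the other tested members (open blue). The short members lie mostly below 0, with Polr3k above it, and Taf5 and Taf4a lie apart among the long ones.

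The mutant libraries did not deviate alike. The median deviation of the 44 tested members from the WT mean was −0.34 in Lsm14b-KO replicate 1, −0.71 in replicate 2 and −0.49 in replicate 3, beside −0.04, −0.14 and −0.07 for all tested genes. Over the 12 members that fell it was −0.98, −1.64 and −1.33 in the same order. Lsm14b-KO replicate 1 was the highest mutant library in 6 of these 12, and in 725 of the 975 genes that fell in all. Without this library 26 members passed, 21 lower and 5 higher, with 45.3% of all tested genes called. Without Lsm14b-KO replicate 2 or 3, 7 and 2 members passed, and without WT replicate 1, 2 or 3, 3, 1 and 2 members passed. Of the 13 called members, Taf1b passed in 3, Polr2e in 5, and Taf5 and Gtf3c6 in 7 of the 15 alternatives. Gtf2h3 passed in 7 of the 14 in which it was tested. Relative depth and the FPKM sums also differ between these libraries, as given above, and their part in the result was not tested.

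**Figure D5:**
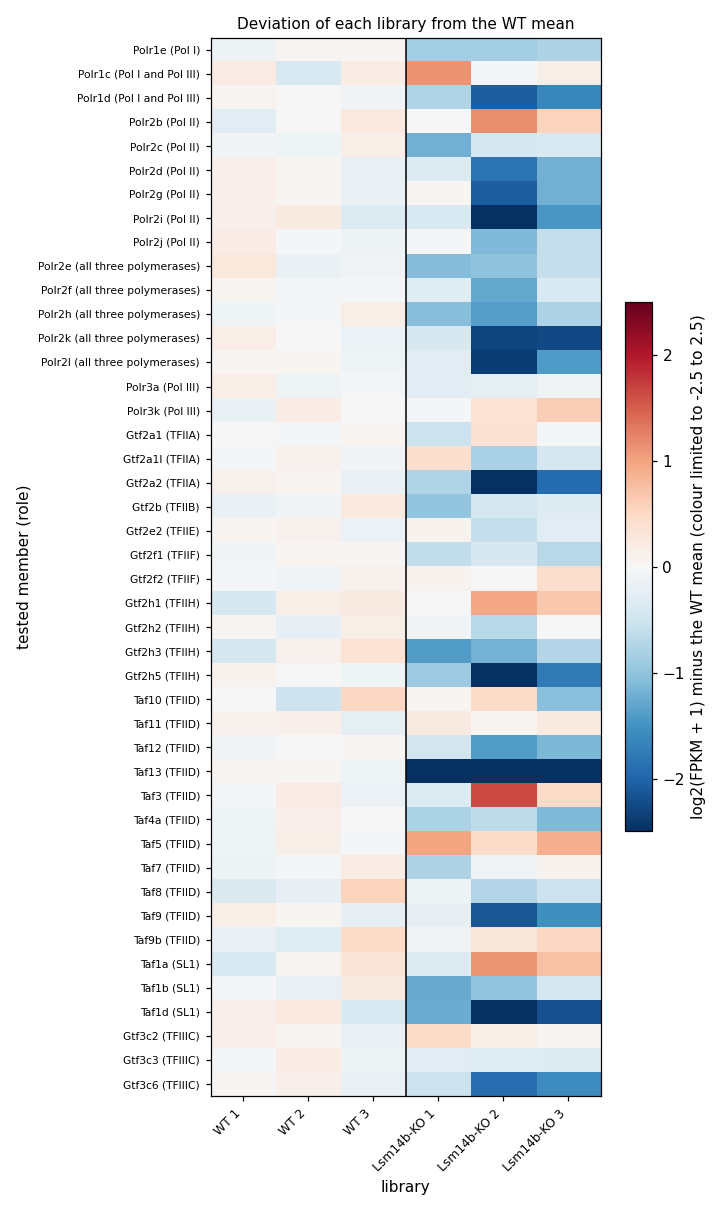
Deviation of each library from the WT mean in log2(FPKM + 1) for the 44 tested members, ordered by role, with blue for lower and red for higher and the colour limited to −2.5 to 2.5. Lsm14b-KO replicate 1 is paler than replicates 2 and 3 for genes such as Polr2d, Polr2l and Taf9, and about as dark for Polr1e, while Taf13 lies beyond the colour limit in all 3 mutant libraries.

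Genes that work with this machinery but fall outside the symbol rule were listed separately, and 57 were in the table. Of these 31 were tested, and 6 fell, 4 rose and 21 did not pass, with a median difference of −0.38. The called genes are 32.3% of those tested against 21.6% of all tested genes, with 19.4% lower against 15.2% and 12.9% higher against 6.38%. Of the 4 rises Ell2, Dr1 and Tfam, and of the 6 falls Ercc3, reached 1 FPKM only in the group where they are high. They entered the test, and so these shares, through that group. Tbp, the TATA-binding protein of somatic TFIID and SL1 (chromosome 17, 15499888 to 15528379, plus strand), had 18.9, 17.5 and 22.1 FPKM in WT and 5.99, 6.24 and 4.91 FPKM in Lsm14b-KO libraries. All 3 mutant libraries lay close together, and Tbp fell by 1.61 ± 0.23 (SE, adjusted p = 0.00473), and it passed the test in all 15 alternatives. Tbpl2, its relative in growing oocytes, had 9.15, 9.64 and 4.34 FPKM in WT and 9.69, 3.54 and 4.42 FPKM in Lsm14b-KO libraries, which overlap (difference −0.38 ± 0.40, adjusted p = 0.492, exact permutation p = 0.70). The ratio of Tbpl2 to Tbp was 0.196 to 0.552 in WT and 0.568 to 1.62 in Lsm14b-KO libraries. Gpn2, a GTPase of polymerase assembly, had the largest difference on this list, with 15.6, 16.4 and 20.0 FPKM in WT and 2.03, 0.763 and 1.24 FPKM in Lsm14b-KO libraries (−3.0 ± 0.26, adjusted p = 0.00103). It also passed in all 15 alternatives, and its WT mean was 12.9 times the Lsm14b-KO mean.

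Snapc5, the smallest subunit of the complex that starts small nuclear RNA genes, fell from 167, 163 and 139 to 79.5, 26.5 and 44.2 FPKM (−1.75 ± 0.41, adjusted p = 0.0239). Tfb1m, a methyltransferase of mitochondrial ribosomal RNA, had 15.1, 15.8 and 17.0 FPKM in WT and 8.12, 5.46 and 6.25 FPKM in Lsm14b-KO libraries (−1.17 ± 0.24, adjusted p = 0.0146). Tcea1, the elongation factor TFIIS, had 21.7, 20.8 and 19.2 FPKM in WT and 7.95, 8.01 and 10.5 FPKM in Lsm14b-KO libraries (−1.14 ± 0.24, adjusted p = 0.0158). In these 3 genes the groups did not overlap. Ercc3, the XPB helicase of TFIIH, fell from 1.82 to 2.40 FPKM in WT to 0.642 to 0.911 FPKM in Lsm14b-KO libraries (−0.75 ± 0.19, adjusted p = 0.0286), and entered the test through WT, since it reached 1 FPKM in WT libraries alone. With TPM scaling Tfb1m, Tcea1 and Ercc3 did not pass, at −0.55 (adjusted p = 0.116), −0.50 (adjusted p = 0.228) and −0.37 (adjusted p = 0.242).

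The 4 genes that rose were at low levels. Ell2, an elongation factor of Pol II, had 0.594, 0.391 and 0.505 FPKM in WT and 1.96, 2.14 and 2.77 FPKM in Lsm14b-KO libraries (1.13 ± 0.19, adjusted p = 0.00783). Its relative Ell3 had 0.894, 1.56 and 1.21 FPKM in WT and 3.88, 3.67 and 2.21 FPKM in Lsm14b-KO libraries (0.92 ± 0.24, adjusted p = 0.0307). Every mutant library was above every WT library in both. Dr1, a repressor that binds TBP, was listed at 0.0896, 0 and 0.174 FPKM in WT and at 0.607, 0.690 and 1.15 FPKM in Lsm14b-KO libraries (0.73 ± 0.21, adjusted p = 0.0443). Tfam, which packages and transcribes mitochondrial DNA, had 0.0689, 0.0604 and 0.201 FPKM in WT and 0.519, 1.13 and 0.921 FPKM in Lsm14b-KO libraries (0.73 ± 0.21, adjusted p = 0.0455). Ell2, Dr1 and Tfam reached 1 FPKM in Lsm14b-KO libraries alone and so entered the test through the group where they are high. Dr1 passed in 6 and Tfam in 5 of the 14 alternatives in which they were tested.

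Several members share sequence or position with other genes. Near-identical copies, at 95% identity or more over at least 300 bases of transcript, were found elsewhere for 9 members, among them Taf13 (2 copies), Taf1d (1) and Polr2h (1) of the 13 called. Of the 44 tested members, 21 have an annotated gene on the opposite strand of the gene body and 6 have one on the same strand, among them Taf9. The sources used here do not state strandedness, so reads of such pairs cannot be told apart.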

How the data were processed

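RNA-Seq libraries of GV-stage FGOs were compared, 3 from WT and 3 from Lsm14b-KO mice, with groups and replicate numbers taken from the labels. cDNA was made by Smart-seq2, while the library kit is named in different ways in 2 places of the labels. The authors aligned reads to mm10 with TopHat2 2.0.13 and deposited FPKM values from Cufflinks 2.2.1, with Cuffnorm and Cuffdiff also listed. How the deposited FPKM was scaled between libraries was not established here, and abundant transcripts may move the values of the others. The deposited fold changes, p-values and q-values are the authors' own comparison and were not used. Read counts were not used here.

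Values were transformed to log2(FPKM + 1), which understates the change of low genes. Genes with 1 FPKM or more in at least 1 library entered a linear model of genotype alone in limma (version 3.58.1, R 4.3.3, lmFit, eBayes with trend, two-sided), with Benjamini-Hochberg adjustment over 6398 genes at 0.05. The test was checked on simulated data. Exact permutation tests of single genes were two-sided and cannot go below 0.10. Gene bodies, coding lengths and overlaps came from GENCODE vM21 (GRCm38), copies from blastn 2.17.0. The members and the lists of other genes and markers were chosen with earlier results of these data known. The text names the members past the threshold, the largest subunits, paralog pairs, and, among the other machinery genes, Tbp, Tbpl2 and up to 6 of the largest rises and 6 of the largest falls past the threshold. Members named beyond that rule were chosen after their values were seen. A total of 27 symbols had been turned into dates by a spreadsheet and could not be matched. Alternatives were another pseudocount, filter, scaling, length correction and variance model, a replicate block, and leaving out each library.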

Additional observations from a re-analysis of the deposited data

How the results depend on the processing

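The call counts moved when a library was left out, and each such fit also has less power, since a group then holds fewer libraries. Leaving out each library in turn gave 315 to 2898 genes called in all in place of 1383, 1 to 26 members in place of 13, and 2 to 17 of the other machinery genes in place of 10, highest without Lsm14b-KO replicate 1. The members' median lay between −0.64 and −0.54 in those fits. Testing every gene above 0 gave 720 genes, 4 of 70 members and 5 other machinery genes, with a members' median of −0.095 over more genes near 0. TPM scaling gave 6 members. The median was −0.0067 with TPM, −0.36 with the length correction, −0.31 with quantile normalization and −0.84 with a pseudocount of 0.01. The other alternatives kept the counts within 1.5 times.

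The sign was followed gene by gene in 30 of the named genes, and among these only genes that had not passed changed sign. In those that had passed the groups did not overlap, so only TPM, quantile normalization or the length correction could have changed their sign. Over all 44 tested members, 33 had a lower estimate as reported and 22 with TPM, so members outside the followed genes also changed sign. The values below are those of followed genes. With TPM the differences became 0.21 for Polr3a, 0.11 for Gtf2b, 0.53 for Gtf2a1, 0.37 for Gtf2a1l, 0.42 for Taf7 and 0.21 for Tbpl2. With quantile normalization they became 0.22 for Gtf2b, 0.10 for Gtf2a1, 0.029 for Gtf2a1l and 0.30 for Taf7. With the length correction they became 0.032 for Gtf2a1l and 0.036 for Tbpl2. Without Lsm14b-KO replicate 1 they were 0.17 for Gtf2a1 and 0.0023 for Taf7, and without Lsm14b-KO replicate 2 it was 0.0017 for Gtf2a1l. Leaving out each library in turn gave Gtf2a1 −0.29 to 0.17, Gtf2a1l −0.62 to 0.0017 and Taf7 −0.43 to 0.0023. The cause was not tested.

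Same-numbered WT and Lsm14b-KO libraries did not deviate together (r across genes 0.19, −0.13 and 0.018 for numbers 1, 2 and 3), so the numbers were not taken as pairs. With a replicate block 1244 genes, 12 members and 10 other machinery genes were called. FPKM without counts gives depth only in relative terms, so a gene listed at 0 may lie below detection.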
